A study of Mus musculus with 9 samples.

Results

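The E12.5 cortices of 3 Cnot3;Trp53 double conditional knockout embryos (dcKO) were compared with those of 3 control embryos (Ctrl), 6 of the 9 embryos of the series. Membership came from the genotype labels alone. The Ctrl embryos are labelled WT and no further genotype is given for them here. The dcKO embryos are described as carrying Emx1-Cre with both copies of Cnot3 and of Trp53 floxed. Emx1-Cre is a recombinase active in the radial glial cells of the dorsal telencephalon and in their progeny, so blood vessels, meninges, microglia and blood cells in the dissected tissue keep both genes. Each library holds the cortical tissue of a single embryo, and poly(A) RNA was measured as reads per gene. The other 3 embryos are Cnot3 cKO, which carry the same Cre and floxed Cnot3 but intact Trp53. They entered the statistical models, and their values are given beside those of dcKO only where stated. Both mutants are set against the same 3 Ctrl embryos.

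CNOT3 is a regulatory subunit of CCR4-NOT, the complex that shortens poly(A) tails and so begins the decay of most cytoplasmic mRNAs. It is recruited by RNA-binding proteins, by microRNA complexes and by ribosomes that slow on poorly decoded codons. Loss of Cnot3 in cortical progenitors activates p53, a transcription factor that induces cell cycle arrest and apoptosis genes. The dcKO was designed to delete both genes, and the comparison asks which transcripts differ from Ctrl when Trp53 is deleted as well. No protein was measured here.

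The 3 dcKO libraries held 34196798, 45073349 and 23275370 assigned reads, against 21193798 to 28869816 in Ctrl, and 13680 genes had more than 10 reads in every embryo of the series. Expression is given as CPM, the reads of a gene scaled to a common library size, with TMM normalization, in the order of replicates 1, 2 and 3. The dcKO embryos differed more among themselves than the Ctrl embryos did. The median SD over genes of log2(CPM + 0.5) was 0.516 in dcKO and 0.156 in Ctrl. Reads of Xist, which is transcribed in cells with 2 X chromosomes, were present in Ctrl 2, Ctrl 3 and dcKO 2 and at 0 in the other 3 of these embryos.

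Both deleted genes were below every Ctrl embryo in all 3 dcKO embryos, but to unequal depth. Cnot3 (chr7:3645268-3661109 of GRCm38) was at 117, 107 and 98.2 CPM in Ctrl and at 7.33, 48.2 and 19 CPM in dcKO, which is 6.82%, 44.9% and 17.7% of the Ctrl mean. Trp53 (chr11:69580359-69591873) was at 237, 254 and 215 CPM in Ctrl and at 15.1, 110 and 20.6 CPM in dcKO, or 6.41%, 46.9% and 8.76% of the Ctrl mean. dcKO 2 thus kept more than 40% of both transcripts while dcKO 1 kept under 7%. Reads of genes of the subpallium, the ventral neighbour of the cortex outside the Emx1 lineage, were also found in dcKO 2. Gsx2 had 96 reads there, Dlx2 88, Gad2 80 and Dlx1 47, against 8 at most for any of these genes in Ctrl, dcKO 1 and dcKO 3. The 17 subpallial markers summed to 64.2 to 70.3 CPM in Ctrl and to 40.4, 91.6 and 45.8 CPM in dcKO. The genotype of dcKO 2 rests on its label. Its genotype, the extent of recombination and the share of unrecombined tissue cannot be told apart from these counts. Counts cover the whole gene, including any exon that recombination leaves in place. The log2 fold change was -2.11 ± 0.52 (SE) for Cnot3 and -2.27 ± 0.62 for Trp53. With 3 embryos a group, the adjusted p of edgeR's quasi-likelihood test was 0.0529 and 0.0605. DESeq2 gave 0.00119 for Cnot3 and no adjusted p for Trp53. With a correction of each embryo for GC content the log2 fold change of Cnot3 was -1.27 (edgeR adjusted p = 0.199).

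Transcriptional targets of p53 lay on both sides of Ctrl in the dcKO embryos. Cdkn1a, which encodes the cell cycle inhibitor p21, was at 16.7, 17.3 and 16.6 CPM in Ctrl and at 27.9, 8.99 and 21.5 CPM in dcKO. The p53-induced cyclin gene Ccng1 was at 30.2, 28.6 and 34.0 CPM in Ctrl and at 42.4, 54.4 and 17.8 CPM in dcKO. For both genes dcKO embryos lay on both sides of the Ctrl range. The death receptor gene Eda2r was at 2.00, 2.38 and 2.85 CPM in Ctrl and at 4.28, 2.84 and 1.37 CPM in dcKO, and Sesn2, a stress-induced regulator of mTORC1, was at 14.2, 14.7 and 10.6 CPM in Ctrl and at 6.36, 4.90 and 19.1 CPM in dcKO. Log2 fold changes of these 4 genes ranged from -0.39 to 0.31, and every one had an edgeR adjusted p of 0.555 or more. In the Cnot3 cKO embryos Cdkn1a was at 68.1 to 124 CPM and Eda2r at 36.3 to 58.5 CPM. Of 31 p53 targets tested, 3 (Ercc5, Polk and Sesn1) were above every Ctrl embryo in all 3 dcKO embryos and 2 (Aen and Phlda3) below, where the log2 fold change of Phlda3 was -1.18 and, with a correction of each embryo for GC content, 0.052. Among all genes tested, 15.6% were above and 11.2% below in this sense. DESeq2 called none of the 31 targets up and 2 down. The median log2 fold change of the 31 targets was 0.21, beside 0.11 for all genes tested.

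**Figure D1:**
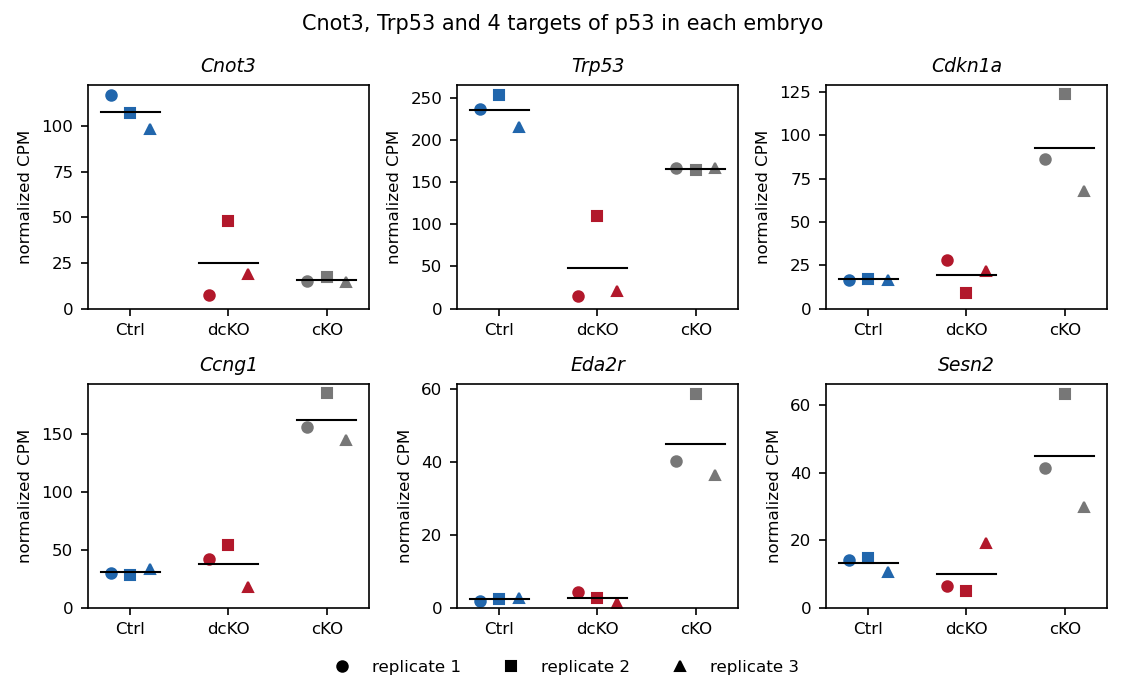
Normalized CPM of Cnot3, Trp53 and 4 p53 targets in each embryo, with symbols for replicates 1 to 3 and black bars for group means. Cnot3 and Trp53 are below Ctrl in all 3 dcKO embryos and highest in dcKO 2, at 48.2 and 110 CPM, and the 4 targets overlap between dcKO and Ctrl.

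No gene passed an edgeR adjusted p under 0.05 with a change over 2-fold (0.00% in each direction). The smallest adjusted p was 0.0502, shared by 273 genes, and at an unadjusted p under 0.05 there were 2464 genes higher (18.0%) and 1530 lower (11.2%). DESeq2, the tool the study names for this experiment, called 638 genes up (4.67% of 13663) and 519 down (3.80%) at the same thresholds. Embryo by embryo, 2140 genes (15.6%) were above every Ctrl embryo in all 3 dcKO embryos and 1533 (11.2%) below. Requiring also that each dcKO embryo differ at least 2-fold from the Ctrl mean, on the log2(CPM + 0.5) scale, left 93 genes higher (0.680%) and 52 lower (0.380%). DESeq2 called all 93 of the first and 51 of the second. Lgals8 and Cacng7 were the last genes inside the 2-fold limit and Lmx1a and Heyl the first outside it.

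The embryos did not contribute equally to these counts. dcKO 1 had 1613 genes at least 2-fold above the Ctrl mean and 2300 below, dcKO 2 had 1285 and 2321, and dcKO 3 had 1090 and 428. Each Ctrl embryo had at most 10 genes above and 16 below its group's mean by this measure. dcKO 1 and dcKO 2 shared 1501 of the lower genes and 362 of the higher, while dcKO 1 and dcKO 3 shared 155 and 562. dcKO 2 and dcKO 3 had only 65 lower and 105 higher genes in common, and in 299 genes they stood 2-fold from Ctrl in opposite directions. Without dcKO 3 the count of genes 2-fold lower in every remaining embryo was 1501 in place of 52, and without dcKO 2 the count of genes 2-fold higher was 561 in place of 93.

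The genes highest in all 3 dcKO embryos, ranked by the embryo that differed least, were led by Rspo2, which encodes R-spondin 2, a secreted amplifier of Wnt signalling. Rspo2 was at 7.46, 12.3 and 0.613 CPM in Ctrl and at 121, 36.9 and 31.0 CPM in dcKO, a mean 9.26 times higher. Ctrl 3 was itself well below the other Ctrl embryos. Rab39, encoding a Rab GTPase, was at 0.652, 1.69 and 2.42 CPM in Ctrl and at 12.2, 10.7 and 6.08 CPM in dcKO. Sulf1, an extracellular sulfatase that edits heparan sulfate and thereby Wnt and growth factor signalling, was at 3.47, 4.86 and 4.98 CPM in Ctrl and at 80.6, 26.3 and 14.4 CPM in dcKO. In Rspo2 and Sulf1 the difference was largest in dcKO 1. It was even across embryos for Armc2, at 1.10, 1.04 and 1.23 CPM in Ctrl and 4.19, 4.57 and 4.72 CPM in dcKO, with a log2 fold change of 1.99 ± 0.29. Armc2 also had the smallest unadjusted edgeR p of any higher gene tested, with an edgeR adjusted p of 0.0502 and a DESeq2 adjusted p of 2.17e-07.

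The remaining genes of this ranking were Ccdc125, Nrsn1, Lrp2, Ccdc18, Rnf135, AI429214, Rad9b and Zkscan16, with log2 fold changes between 1.64 and 2.65. Lrp2 encodes megalin, an endocytic receptor of the forebrain neuroepithelium, and was at 1.26, 1.69 and 2.34 CPM in Ctrl and 8.83, 7.97 and 5.34 CPM in dcKO. Ccdc18 was at 4.53, 3.87 and 4.33 CPM in Ctrl and at 19, 14.5 and 11.8 CPM in dcKO. Nrsn1, a neuronal vesicle membrane protein gene, was at 1.02, 0.992 and 1.12 CPM in Ctrl and 5.30, 3.60 and 4.93 CPM in dcKO. A further 3 genes stood out by a small edgeR p. Bnip3, a mitophagy receptor gene, was at 20.8, 19.4 and 22.9 CPM in Ctrl and 138, 51.5 and 80.8 CPM in dcKO. The synaptic vesicle calcium sensor gene Syt1 was at 8.85, 12.2 and 9.88 CPM in Ctrl and 48.4, 25.2 and 31.3 CPM in dcKO. Bclaf3 was at 13.0, 12.496 and 13.0 CPM in Ctrl and 38.3, 36.6 and 26.7 CPM in dcKO. In the Cnot3 cKO embryos, set against the same 3 Ctrl embryos, Syt1 was at 32.0 to 39.1 CPM and Bclaf3 at 25.1 to 26.4 CPM.

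The genes lowest in all 3 dcKO embryos, ranked in the same way, included integrin, laminin and collagen genes. Lancl3, on the X chromosome, headed the ranking, at 6.89, 2.73 and 3.68 CPM in Ctrl and 0.333, 0.817 and 0.869 CPM in dcKO. Itga11, the collagen-binding integrin α11, was at 11.2, 13.7 and 14.3 CPM in Ctrl and at 2.19, 2.17 and 3.89 CPM in dcKO (log2 fold change -2.25 ± 0.33, edgeR adjusted p = 0.0502, DESeq2 adjusted p = 6.86e-09). Itgb3, integrin β3, was at 9.62, 15.2 and 23.1 CPM in Ctrl and at 5.41, 5.21 and 3.97 CPM in dcKO. Col6a3, a collagen VI chain, was at 28.2, 25.1 and 30.7 CPM in Ctrl and at 6.05, 6.82 and 11.5 CPM in dcKO. Lamc3, a laminin γ chain of basement membranes, was at 25.8, 30.2 and 26.4 CPM in Ctrl and at 6.0, 6.90 and 11.6 CPM in dcKO. The matrix protein gene Ecm1 was at 7.22, 9.87 and 7.86 CPM in Ctrl and at 1.33, 0.409 and 2.90 CPM in dcKO.

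Further genes of the list encode a planar polarity cadherin, a growth factor subunit and a transcription factor. Celsr2, the seven-pass cadherin, was at 298, 227 and 179 CPM in Ctrl and at 24.4, 75 and 99.8 CPM in dcKO. Inhbb, the activin βB subunit, was at 25.1, 23.8 and 15.6 CPM in Ctrl and at 1.97, 7.69 and 7.86 CPM in dcKO. Etv5, an ETS factor induced by FGF signalling, was at 40.1, 46.1 and 35.9 CPM in Ctrl and at 5.86, 16.2 and 8.61 CPM in dcKO. Each was lowest in dcKO 1. Laptm5, a lysosomal gene of blood and microglial cells, was at 22.3, 25.8 and 19.2 CPM in Ctrl and at 5.03, 6.03 and 8.32 CPM in dcKO. Ehbp1l1 and the kinase gene Dmpk, the last of the ranking, had log2 fold changes of -2.12 each. Lower genes with a small edgeR p also included Lamc1, the common laminin γ1 chain (155, 163 and 175 CPM in Ctrl, 68.3, 86.5 and 81.2 CPM in dcKO), Mmp14, a membrane-bound collagenase (96.0, 110 and 80.1 CPM against 37.7, 35.9 and 53.2 CPM), and Slc7a5, the large neutral amino acid transporter (145, 154 and 137 CPM against 44.4, 72.7 and 70.6 CPM). In the Cnot3 cKO embryos Etv5 was at 38.9, 51.3 and 18.7 CPM, Itgb3 at 9.92, 12.7 and 8.86 CPM and Laptm5 at 17.5, 21.6 and 9.09 CPM. For these 3 genes cKO values lay partly inside the Ctrl range, and the difference between the mutants was not tested. In the other 9 of the 12 ranked genes every cKO embryo was below every Ctrl embryo. Itga11 was at 4.09, 3.16 and 4.26 CPM in cKO, Celsr2 at 57.5, 70.5 and 51.2 CPM and Inhbb at 4.196, 4.46 and 2.98 CPM, set against the same 3 Ctrl embryos.

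**Figure D2:**
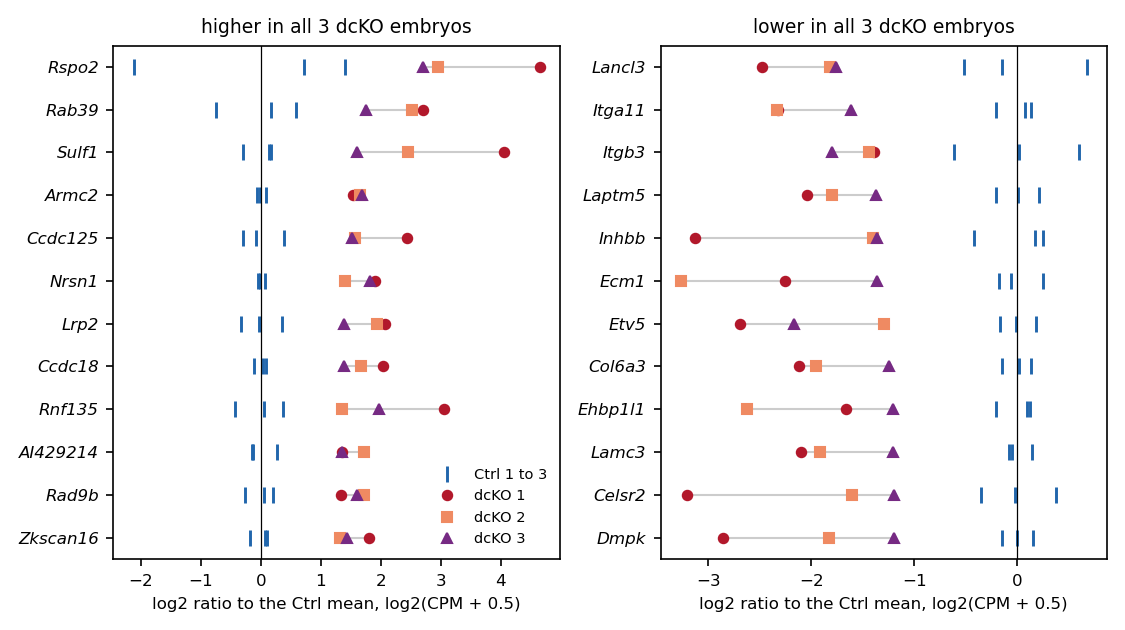
Log2 ratio of each embryo to the Ctrl mean, on the log2(CPM + 0.5) scale, for the 12 genes highest and the 12 lowest in all 3 dcKO embryos. Blue ticks are Ctrl embryos and coloured symbols dcKO embryos, and in every row the dcKO symbols lie at least 2-fold from the Ctrl mean and outside the Ctrl ticks.

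The 2 groups of genes differed in the make-up of their coding sequences. GC3 is the share of codons that end in G or C, and such codons often mark stable transcripts in mammalian cells. Median GC3 was 50.8% in the genes 2-fold higher in all 3 embryos (83 of 93 with a coding sequence in the annotation), 71.2% in those lower (48 of 52), and 60.4% in all genes tested. Codons 101 to 140 of 2 genes at the top of each ranking are shown to make the contrast visible, from the longest coding isoform of GENCODE M21 on GRCm38, with the last base of a codon in capitals where it is A or T. Rspo2 (minus strand of chr15:43020794-43170826) has 26 such codons of 40 and Rab39 (minus strand of chr9:53684110-53706232) has 27. Lancl3 (plus strand of chrX:9199902-9268085) has 4 and Itga11 (plus strand of chr9:62677826-62783982) has 6. GC3 over the whole coding sequence was 46.9% for Rspo2, 54.4% for Rab39, 72.4% for Lancl3 and 72.7% for Itga11, so these stretches show a wider contrast than the whole genes. The coordinates are gene spans and the stretches are exonic coding sequence.
Rspo2: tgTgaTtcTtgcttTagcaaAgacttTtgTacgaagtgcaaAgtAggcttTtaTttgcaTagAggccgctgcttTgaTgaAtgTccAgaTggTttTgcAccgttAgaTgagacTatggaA
Rab39: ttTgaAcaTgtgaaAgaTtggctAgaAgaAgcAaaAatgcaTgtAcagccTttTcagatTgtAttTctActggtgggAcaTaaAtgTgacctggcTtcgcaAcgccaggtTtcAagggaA
Lancl3: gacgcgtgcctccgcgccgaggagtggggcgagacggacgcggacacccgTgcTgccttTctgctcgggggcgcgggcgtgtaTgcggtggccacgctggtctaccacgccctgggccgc
Itga11: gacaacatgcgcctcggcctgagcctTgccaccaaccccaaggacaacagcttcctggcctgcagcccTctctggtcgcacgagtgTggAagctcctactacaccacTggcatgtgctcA

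Over the 12077 tested genes with a coding sequence, the relation with GC3 differed between the dcKO embryos. In dcKO 1 the median log2 ratio to Ctrl was 0.58 in the quartile of lowest GC3 and -0.72 in the highest, and in dcKO 2 it was 0.77 and -0.80. In dcKO 3 it was -0.05 and 0.11. The lowest minus the highest quartile was therefore 1.30, 1.57 and -0.17 in the 3 dcKO embryos, while each Ctrl embryo against the other Ctrl embryos gave -0.21, -0.15 and 0.36. The slope of dcKO 1 and dcKO 2 lay outside the spread of Ctrl and that of dcKO 3 lay inside it, although the ratio of dcKO 3 itself was above every Ctrl embryo in the second and the third quartile. Among the dcKO embryos, dcKO 2 had the steepest slope and the most Cnot3 left, and how these go together was not tested. In the Cnot3 cKO embryos the same quartile difference was 0.56, 0.38 and 0.65. When a gene had to be beyond every Ctrl embryo in all 3 dcKO embryos, 31.9% of the lowest GC3 quartile were above and 1.03% below, against 4.04% above and 19.7% below in the highest quartile. GC3 follows the GC content of the whole transcript, which library preparation and sequencing also respond to, and its part in these ratios was not tested. With a correction of each embryo for GC content, edgeR called 165 genes up and 58 down. Such a correction also takes out any difference between genotypes that follows GC content.

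**Figure D3:**
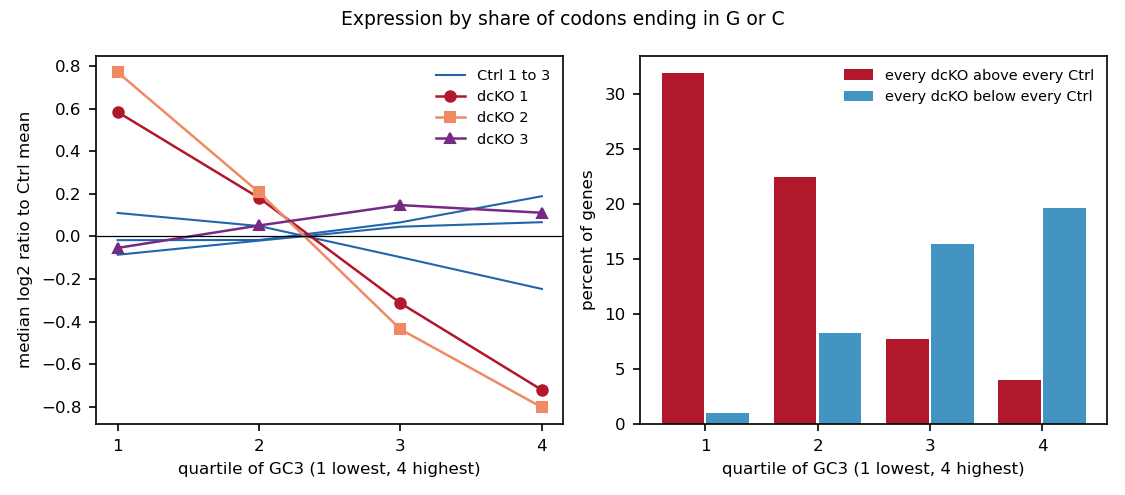
Left, median log2 ratio in quartiles of GC3, with a line for each Ctrl and dcKO embryo. dcKO embryos are set against the Ctrl mean and each Ctrl embryo against the mean of the other Ctrl embryos. Right, percent of genes in each quartile with every dcKO embryo above or below every Ctrl embryo. dcKO 1 and dcKO 2 go from 0.58 and 0.77 in the lowest quartile to -0.72 and -0.80 in the highest, while dcKO 3 stays between -0.05 and 0.15, above every Ctrl line in the middle quartiles.

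Rspo2 belongs to the genes of the cortical hem, the signalling centre at the medial edge of the cortex that secretes Wnt and BMP ligands, patterns the hippocampus and borders the choroid plexus. Of 6 R-spondin and hem Wnt genes tested, 4 were above every Ctrl embryo in all 3 dcKO embryos and none below, beside 15.6% and 11.2% of all genes, and DESeq2 called 3 up. Rspo3 was at 14.4, 22.6 and 11.1 CPM in Ctrl and at 122, 51.4 and 28.8 CPM in dcKO. Wnt2b was at 3.38, 5.85 and 0.433 CPM in Ctrl and at 26.3, 6.46 and 16.4 CPM in dcKO. The margin of Wnt2b over the highest Ctrl embryo was small in dcKO 2. Wnt5a was at 11.3, 12.3 and 7.03 CPM in Ctrl and at 25.2, 13.5 and 12.6 CPM in dcKO, and Rspo1 and Wnt8b overlapped between groups. Of the transcription factors and BMP ligands of the hem, Lmx1a was at 6.20, 6.89 and 2.70 CPM in Ctrl and at 28.2, 10.3 and 13.0 CPM in dcKO. The 13 hem markers include the 6 R-spondin and hem Wnt genes already counted. Of the 13, 7 were above every Ctrl embryo and 5 (Rspo1, Msx1, Msx2, Bmp4 and Wnt8b) overlapped with Ctrl. Only Bmp7 was below, at 22.8, 25.6 and 18.6 CPM in Ctrl and at 7.97, 9.14 and 11.3 CPM in dcKO.

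Markers of the neighbouring choroid plexus, the epithelium that makes cerebrospinal fluid, were higher in their sum, although none of the 10 passed the filter on low counts. Ttr, Clic6 and Otx2 were above every Ctrl embryo in all 3 dcKO embryos, Aqp1 was below, and the other 6 overlapped with Ctrl. The summed level of the 10 was 5.30, 6.94 and 6.16 CPM in Ctrl and 116, 17.7 and 19 CPM in dcKO. Ttr, which encodes transthyretin and defines this epithelium, was at 0 in all 3 Ctrl embryos and had 2050, 134 and 149 reads in dcKO 1, 2 and 3. The 13 hem markers summed to 148, 192 and 123 CPM in Ctrl and to 516, 238 and 236 CPM in dcKO. Markers of the diencephalon and antihem, of which Foxb1 and Sim1 were at 0 in every Ctrl and dcKO embryo, summed to 38.4 to 47.7 CPM in Ctrl and 53.1 to 71.0 CPM in dcKO. Most of that sum was Lhx9, at 43.0, 37.4 and 35.1 CPM in Ctrl and at 59.0, 63.8 and 43.7 CPM in dcKO, where dcKO 3 was just over the highest Ctrl embryo. In the Cnot3 cKO embryos the hem sum was 177 to 511 CPM and the choroid plexus sum 20.1 to 73.8 CPM. In bulk tissue a larger share of hem cells in the dissected piece and more RNA per hem cell cannot be told apart, and the part of dissection was not tested.

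Genes for building primary cilia were higher in dcKO. The primary cilium is the antenna that radial glial cells extend into the ventricle, and Hedgehog signalling passes through it. Intraflagellar transport (IFT) trains of 2 complexes, IFT-A and IFT-B, carry cargo along the cilium with kinesin-2 and dynein-2 motors, and the BBSome sorts membrane proteins in and out. Of 40 genes of these complexes, all tested, 27 were above every Ctrl embryo in all 3 dcKO embryos (67.5%, beside 15.6% of all genes) and none below. DESeq2 called 16 up, beside 4.67% of all genes, and 29 had a higher level at an unadjusted edgeR p under 0.05, beside 18.0% of all genes. The median log2 fold change was 0.85, and the median ratio to Ctrl was 1.18, 0.47 and 0.70 on the log2 scale in dcKO 1, 2 and 3. The same genes had a median log2 ratio of 0.66 to 0.78 in the Cnot3 cKO embryos.

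The BBSome core was higher in 6 of 7 subunits. Bbs5 was at 4.28, 3.62 and 3.86 CPM in Ctrl and at 18.4, 8.02 and 12.3 CPM in dcKO. Bbs7 was at 19.3, 16.6 and 18.9 CPM in Ctrl and at 60.5, 34.5 and 31.7 CPM in dcKO, and Bbs4 at 10.7, 13.4 and 12.8 CPM in Ctrl and at 38.9, 22.8 and 24.1 CPM in dcKO. These 3 genes were highest in dcKO 1. Ttc8 was at 25.8, 30.3 and 32.2 CPM in Ctrl and at 72.2, 51.4 and 62.7 CPM in dcKO (log2 fold change 1.08 ± 0.20, edgeR adjusted p = 0.0502, DESeq2 adjusted p = 0.000165). The exception was Bbs1, which overlapped between groups. The assembly factors and small GTPases Bbs10, Bbs12, Arl6 and Arl13b were above Ctrl in all 3 embryos and Mkks was not.

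In IFT-B, 10 of 17 subunits were above every Ctrl embryo. Ift81 and Ift74 form the tubulin-binding part of the complex. Ift81 was at 32.0, 30.3 and 32.5 CPM in Ctrl and at 151, 63.3 and 77.2 CPM in dcKO, and Ift74 at 47.8, 40.3 and 45.2 CPM in Ctrl and at 146, 110 and 83.5 CPM in dcKO. Ift88, whose loss abolishes cilia, was at 11.9, 12.2 and 14.8 CPM in Ctrl and at 36.6, 22.5 and 26.6 CPM in dcKO. All of these lay clear of Ctrl in every embryo. In IFT-A, Wdr19, Ttc21b and Wdr35 were above Ctrl and Ift122, Ift140 and Ift43 overlapped with it. Wdr19 was at 20.5, 16.6 and 20.1 CPM in Ctrl and at 79.2, 27.6 and 53.4 CPM in dcKO. Of the motors, the dynein-2 subunit gene Dync2li1 was at 23.2, 25.1 and 25 CPM in Ctrl and at 112, 32.6 and 77.8 CPM in dcKO, and Wdr34 was the only one of 5 motor genes to overlap. The 13 genes that did not clear Ctrl included Ift27 and Wdr34, which were below the Ctrl range in dcKO 1 and dcKO 2 and above it in dcKO 3. Median GC3 of the 40 genes was 52.7%, below that of all genes tested, and with the correction for GC content their median log2 fold change was 0.50.

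**Figure D4:**
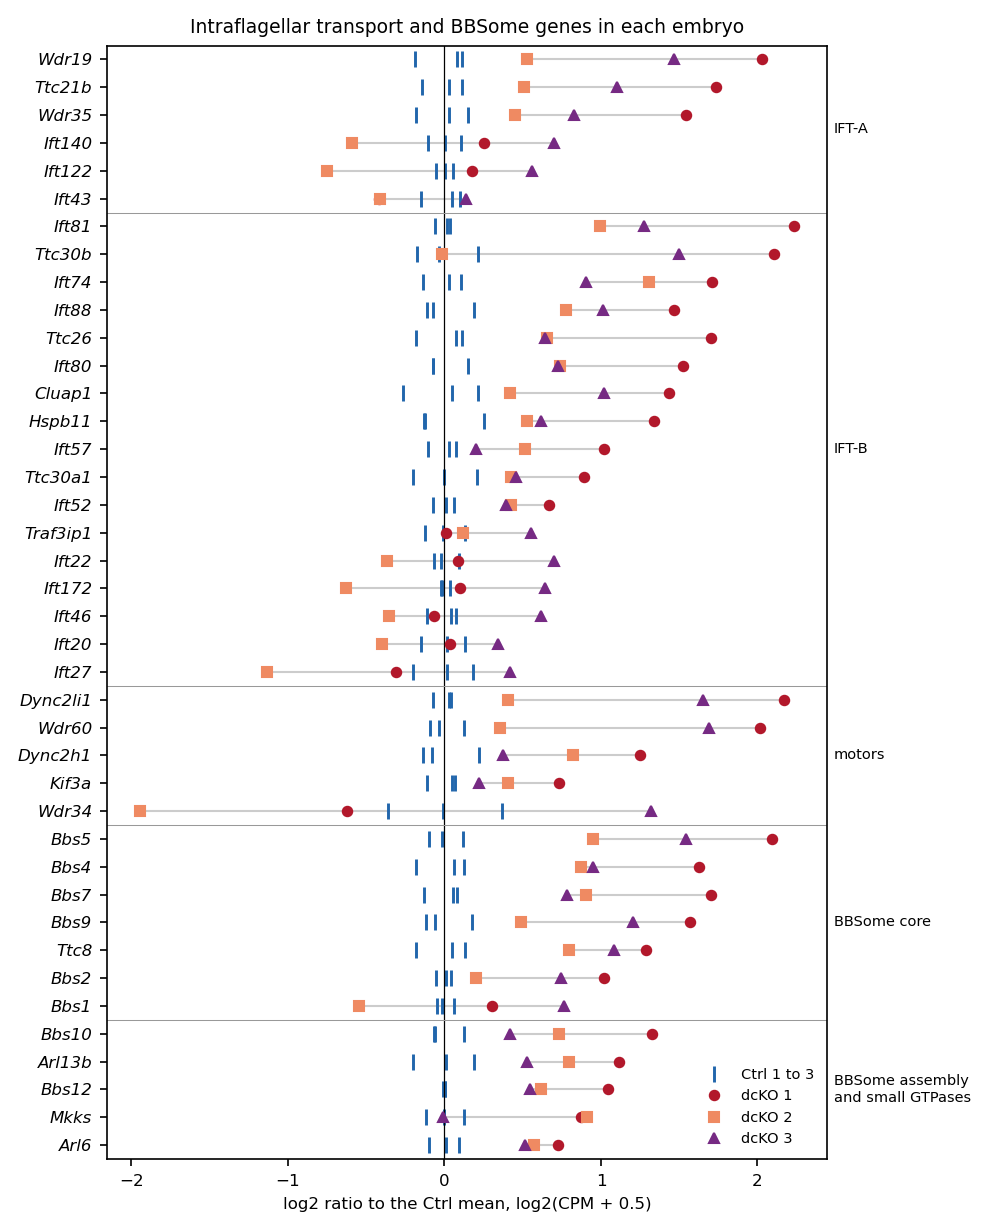
Log2 ratio to the Ctrl mean, on the log2(CPM + 0.5) scale, of 40 IFT and BBSome genes in every Ctrl (blue ticks) and dcKO (coloured symbols) embryo, grouped by complex. In 27 of 40 rows all dcKO symbols lie to the right of the Ctrl ticks, most often with dcKO 1 farthest.

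RFX factors switch on cilia genes by binding X-box motifs close to transcription start sites. The half-site GTTGCC was searched on both strands of RefSeq promoters (GRCm38.p6, 250 bases before to 50 after the start). It was in 14 of the 35 listed genes with a promoter entry and in 14.1% of all 27025 genes with one. The full X-box, whose paired half-sites overlap the first motif, was in 2 of the 35, Bbs7 and Ttc26, and in 0.529% of all genes. Of the 14 genes with the half-site, 9 were above every Ctrl embryo and 5 (Bbs1, Ift140, Ift172, Ift27 and Traf3ip1) were not, beside 27 of all 40 listed genes. A match describes the letters only and does not show binding. The promoters of Bbs5 (chr2:69646921-69647220, plus strand), Bbs7 (chr3:36613340-36613639, minus strand) and Ift88 (chr14:57423821-57424120, plus strand) are shown as genes that were higher together and hold 1 half-site each, in capitals, written as its reverse complement in Ift88.
Bbs5: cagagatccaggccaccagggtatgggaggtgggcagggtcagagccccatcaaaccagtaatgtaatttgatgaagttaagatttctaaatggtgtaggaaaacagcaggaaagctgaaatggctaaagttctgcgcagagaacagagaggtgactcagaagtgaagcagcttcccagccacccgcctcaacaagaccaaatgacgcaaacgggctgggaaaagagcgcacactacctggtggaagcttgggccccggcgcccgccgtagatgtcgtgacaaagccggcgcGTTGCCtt
Bbs7: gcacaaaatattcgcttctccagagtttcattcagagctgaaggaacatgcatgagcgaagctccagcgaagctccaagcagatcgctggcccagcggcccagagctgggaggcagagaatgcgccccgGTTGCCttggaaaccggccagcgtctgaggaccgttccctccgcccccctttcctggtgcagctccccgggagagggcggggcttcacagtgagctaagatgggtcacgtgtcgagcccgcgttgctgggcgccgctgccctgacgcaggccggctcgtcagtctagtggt
Ift88: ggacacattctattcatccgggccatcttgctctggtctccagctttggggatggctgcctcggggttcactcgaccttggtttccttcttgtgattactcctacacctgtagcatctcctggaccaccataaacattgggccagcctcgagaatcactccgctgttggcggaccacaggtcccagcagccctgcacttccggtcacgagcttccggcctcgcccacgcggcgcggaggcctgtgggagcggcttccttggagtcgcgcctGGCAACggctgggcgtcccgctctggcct

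Transcripts of the Hedgehog pathway itself were not among those above Ctrl. Of 11 tested, 4 were below every Ctrl embryo in all 3 dcKO embryos (36.4%, beside 11.2% of all genes) and none above. Smo, the transducer that works at the cilium, was at 270, 272 and 231 CPM in Ctrl and at 105, 168 and 187 CPM in dcKO. Gli2, a transcription factor of the pathway, was at 99.9, 88.0 and 72.2 CPM in Ctrl and at 24.5, 45.0 and 53.4 CPM in dcKO. The co-receptor gene Boc and the ligand exporter gene Disp1 completed the 4. With the correction for GC content the median log2 fold change of this list was -0.02 in place of -0.44.

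Notch signalling keeps cortical progenitors from differentiating. Of 26 Notch pathway genes, 7 were below every Ctrl embryo (26.9%, beside 11.2% of all genes) and 1, Hey1, above. Among the receptors, Notch1 was at 245, 184 and 142 CPM in Ctrl and at 20.0, 48.2 and 120 CPM in dcKO, and Notch2 at 161, 139 and 141 CPM in Ctrl and at 69.0, 97.1 and 86.2 CPM in dcKO. The ligand gene Dll1 was at 130, 111 and 88.3 CPM in Ctrl and at 48.3, 73.1 and 81.4 CPM in dcKO. Heyl, a target gene and repressor, was at 12.3, 16.6 and 16.7 CPM in Ctrl and at 5.36, 7.28 and 4.68 CPM in dcKO. Hey1, of the same repressor family, went the other way, at 130, 134 and 108 CPM in Ctrl and 177, 152 and 173 CPM in dcKO. The median log2 fold change of the list was -0.54, and -0.16 with the correction for GC content.

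The Wnt pathway list holds receptors, effectors and, as its only ligand genes, Wnt7a and Wnt7b. R-spondin and hem Wnt genes, of which 4 of 6 were above every Ctrl embryo, were counted in their own list and not here. Of 36 Wnt pathway genes tested, 9 were below every Ctrl embryo (25%, beside 11.2% of all genes) and 1, Fzd7, above. The median log2 fold change was -0.37, and -0.17 with the correction for GC content. The receptor gene Fzd9 was at 43.5, 27.0 and 21.2 CPM in Ctrl and at 4.72, 8.66 and 14.0 CPM in dcKO, and the receptor kinase gene Ror2 at 96.7, 89.9 and 55.4 CPM in Ctrl and at 11.7, 28.4 and 43.9 CPM in dcKO. The ligand gene Wnt7b was at 174, 155 and 117 CPM in Ctrl and at 39.3, 72.2 and 83.1 CPM in dcKO. Each was lowest in dcKO 1. Axin2, a feedback inhibitor and common readout of the pathway, was at 69.0, 66.4 and 50.04 CPM in Ctrl and at 39.1, 46.4 and 48.3 CPM in dcKO, with dcKO 3 just under the lowest Ctrl embryo. Of 18 FGF and ERK genes, 6 were below every Ctrl embryo (33.3%), with Etv5, Spry1, Fgfr1, Fgfr3, Dusp6 and Spred2 among them, and 1, Fgf2, above.

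Guidance genes steer axons and migrating neurons. Of 38, 12 were below every Ctrl embryo (31.6%, beside 11.2% of all genes) and 6 above (15.8%, beside 15.6%), and DESeq2 called 8 down and 2 up. The lower genes were receptors. Ephb2 was at 295, 258 and 225 CPM in Ctrl and at 42.2, 123 and 106 CPM in dcKO, and Plxna1, a semaphorin receptor, at 208, 171 and 132 CPM in Ctrl and at 41.7, 61.2 and 94.9 CPM in dcKO. Robo3, Unc5b, Plxna3, Plxna4, Plxnb1, Plxnb2, Nrp1, Nrp2, Robo1 and Ephb1 were the other lower members. Among those above were the ligands Sema3c, Sema3d, Sema6a, Ntn1 and Ntn4 and the receptor Epha3. Epha3 was at 54.7, 59.7 and 54.8 CPM in Ctrl and at 73.5, 205 and 93.1 CPM in dcKO, with its highest value in dcKO 2. The median log2 fold change of guidance genes was -0.26, and -0.46 with the correction for GC content.

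The cell cycle genes named by the study did not separate evenly. Ccnd2, the cyclin D2 gene of radial glial cells, was at 2803, 2627 and 2823 CPM in Ctrl and at 1029, 2814 and 1059 CPM in dcKO. Ccnd1 was at 245, 210 and 224 CPM in Ctrl and at 69.5, 236 and 97.4 CPM in dcKO. Both were low in dcKO 1 and dcKO 3 and within the Ctrl range in dcKO 2, and their edgeR adjusted p was 0.191 and 0.202. Cdk4, the kinase partner of D cyclins, was below every Ctrl embryo, at 1212, 1221 and 1157 CPM in Ctrl and 534, 716 and 1049 CPM in dcKO. E2f1, which drives entry into S phase, was at 57.7, 51.8 and 46.2 CPM in Ctrl and at 12.8, 23.1 and 24.3 CPM in dcKO. The inhibitor gene Cdkn1b (p27) was above, at 102, 84.2 and 76.4 CPM in Ctrl and 120, 141 and 124 CPM in dcKO. Of 24 genes of this G1 list, 5 were below (20.8%, beside 11.2% of all genes) and 2 above every Ctrl embryo (8.33%, beside 15.6%).

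Genes of mitosis, later in the cycle, were above Ctrl at a share near that of all genes. Of 49 mitosis and cytokinesis genes, 10 were above every Ctrl embryo and 1, Racgap1, below, which for the higher genes is 20.4% beside 15.6% of all genes. Kif18a, a kinesin that limits chromosome movement at the metaphase plate, was at 37.9, 33.5 and 40.7 CPM in Ctrl and at 120, 93.3 and 65.7 CPM in dcKO (log2 fold change 1.32 ± 0.22, edgeR adjusted p = 0.0502, DESeq2 adjusted p = 7.11e-05). Kif20b, a kinesin of cytokinesis, was at 39.6, 35.8 and 44.2 CPM in Ctrl and at 121, 80.9 and 61.0 CPM in dcKO. Both were highest in dcKO 1 and nearest to Ctrl in dcKO 3. Of 36 DNA damage response genes, 13 were above every Ctrl embryo (36.1%, beside 15.6% of all genes) and 2 below, and DESeq2 called none of either past 2-fold. Xrcc5, which encodes the Ku80 end-binding protein, was at 65.6, 72.8 and 74.2 CPM in Ctrl and at 198, 106 and 114 CPM in dcKO. The helicase gene Wrn was at 18.8, 17.7 and 20.2 CPM in Ctrl and at 52.4, 33.9 and 28.9 CPM in dcKO. With the correction for GC content the median log2 fold change of the mitosis list was 0.09 in place of 0.32, and that of the repair list 0.11 in place of 0.46.

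Collagens, the fibres of the meninges and vessel walls, were lower. Of 25 tested, 12 were below every Ctrl embryo (48.0%, beside 11.2% of all genes) and 2, Col11a1 and Col25a1, above, and DESeq2 called 11 down. Col4a1 and Col4a2 form the collagen IV network of basement membranes. Col4a1 was at 437, 466 and 368 CPM in Ctrl and at 74.4, 80.2 and 247 CPM in dcKO, and Col4a2 at 241, 269 and 205 CPM in Ctrl and at 31.5, 38 and 124 CPM in dcKO. The fibrillar collagen gene Col3a1 was at 410, 466 and 431 CPM in Ctrl and at 171, 185 and 283 CPM in dcKO. dcKO 3 lay closer to Ctrl than the other 2 embryos in all 3 genes. The median log2 fold change of collagens was -0.97, and -0.52 with the correction for GC content.

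Summed markers of the cells that make this matrix, and of other cells outside the Emx1 lineage, were lower in the same embryos, although many single markers overlapped with Ctrl. The 14 meningeal markers summed to 929, 1040 and 966 CPM in Ctrl and to 455, 489 and 628 CPM in dcKO, but this list itself holds Col1a1, Col1a2 and Col3a1. Of 11 meningeal markers tested, 4, with Col3a1 among them, were below every Ctrl embryo (36.4%, beside 11.2% of all genes) and none above. Foxc1 and Lum were among those that overlapped between groups. The 12 endothelial markers summed to 278, 346 and 363 CPM in Ctrl and to 179, 188 and 196 CPM in dcKO. Cdh5, the cadherin of endothelial junctions, was at 59.7, 65.7 and 75 CPM in Ctrl and at 30.0, 31.7 and 31.1 CPM in dcKO. Of 11 endothelial markers tested, 7 were below every Ctrl embryo (63.6%, beside 11.2% of all genes). The 7 pericyte markers summed to 115, 127 and 123 CPM in Ctrl and to 49.97, 57.5 and 84.4 CPM in dcKO, and 4 of 7 were below every Ctrl embryo (57.1%). The 13 microglial markers, which include Laptm5, summed to 80.3, 94.0 and 82.4 CPM in Ctrl and to 51.6, 33.1 and 58.9 CPM in dcKO. Of 10 microglial markers tested, 4 were below every Ctrl embryo (40%). The 10 erythroid markers summed to 10299, 11594 and 7775 CPM in Ctrl and to 6816, 4980 and 6586 CPM in dcKO, and only 2 of 10 were below every Ctrl embryo (20%). All of these sums were lower in every dcKO embryo than in every Ctrl embryo, and their part in the lower matrix genes was not tested. In the Cnot3 cKO embryos the meningeal sum was 611, 811 and 584 CPM and the pericyte sum 109, 114 and 78.5 CPM, also below every Ctrl embryo. The endothelial sum was 251 to 357 CPM, the microglial sum 83.4 to 169 CPM and the erythroid sum 9624 to 14628 CPM in those embryos.

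The summed radial glial markers overlapped between groups. The 19 radial glial markers summed to 4967 to 6104 CPM in Ctrl and to 5154 to 6291 CPM in dcKO, with 1 gene (Prom1) above and 1 (Nes) below every Ctrl embryo, or 5.26% each. Prom1, an apical membrane protein gene, was at 148, 141 and 148 CPM in Ctrl and at 321, 248 and 191 CPM in dcKO. The 13 intermediate progenitor markers summed to 820 to 1102 CPM in Ctrl and to 586, 978 and 847 CPM in dcKO, and the 27 neuronal markers to 3026 to 3726 CPM in Ctrl and to 1916, 3259 and 2889 CPM in dcKO. Both sums were lowest in dcKO 1 and within the Ctrl range in dcKO 2. Of the 27 neuronal markers, 5 (Mapt, Cntn2, Elavl3, Nhlh1 and Dpysl3) were below every Ctrl embryo (18.5%, beside 11.2% of all genes) and 2 (Nefl and Syt1) above (7.41%, beside 15.6%). The neuronal sum of dcKO 1 was 56.7% of the Ctrl mean and its intermediate progenitor sum 60.9%. All of the 19 radial glial, 13 intermediate progenitor and 27 neuronal markers had more than 10 reads in every embryo. The summed markers of Cajal-Retzius cells, the reelin-secreting neurons of the surface, overlapped between groups, although Reln itself was below every Ctrl embryo. Vldlr, a reelin receptor gene, was at 9.46, 9.77 and 9.95 CPM in Ctrl and at 44.2, 29.2 and 17.5 CPM in dcKO.

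The median level of cytosolic ribosomal protein genes was lower in dcKO, with 60 log2 fold changes below 0 and 18 above. Of 78 tested, 21 were below every Ctrl embryo (26.9%, beside 11.2% of all genes) and none above, and DESeq2 called 7 down. Their median log2 ratio to Ctrl was -0.91, -0.53 and -0.16 in dcKO 1, 2 and 3, so the family was close to Ctrl in dcKO 3. Ribosomal protein genes have many processed copies in the genome, and reads shared with them make single members uncertain. Genes of the integrated stress response, which supplies amino acids when translation is impaired, were also examined. Of 19 tested, 5 were below every Ctrl embryo (26.3%, beside 11.2% of all genes) and none above, among them Slc7a5 with its partner Slc3a2, the arginine transporter gene Slc7a1 and the transcription factor gene Atf5. With the correction for GC content the log2 fold change of Atf5 was 0.13 in place of -1.05.

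The other subunits of CCR4-NOT were mostly unseparated from Ctrl. Of 11 subunits, Cnot3 included, 2 were above every Ctrl embryo, Cnot2 and Cnot8, and only Cnot3 was below, or 18.2% and 9.09% beside 15.6% and 11.2% of all genes. CNOT2 binds CNOT3 directly. Cnot2 was at 118, 110 and 126 CPM in Ctrl and at 282, 190 and 156 CPM in dcKO (log2 fold change 0.83 ± 0.21, edgeR adjusted p = 0.0540, DESeq2 adjusted p = 0.0118). Cnot1, the scaffold, was at 400, 368 and 456 CPM in Ctrl and at 397, 571 and 289 CPM in dcKO, on both sides of Ctrl. The deadenylase gene Cnot6 was at 292, 288 and 301 CPM in Ctrl and at 281, 607 and 136 CPM in dcKO. Of 24 adaptors that bring the complex to mRNAs, 4 (Samd4b, Tnrc6c, Tob2 and Zfp36) were below every Ctrl embryo and 1 (Btg1) above, or 16.7% and 4.17% beside 11.2% and 15.6% of all genes.

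The median of several lists differed in direction or size between dcKO embryos. Glycolysis genes had median log2 ratios of -0.47, -0.96 and 0.68 in dcKO 1, 2 and 3. Transcripts of the mitochondrial genome had medians of 0.73, 1.37 and -0.56. In both lists dcKO 3 stood apart in sign from the other 2. MHC class I presentation genes had medians of 1.38, -0.05 and 1.61, and interferon-stimulated genes 1.71, -0.50 and 1.38, and there dcKO 2 stood apart, at the Ctrl level for MHC class I, where the Ctrl embryos had medians of -0.036, 0.043 and -0.022. Markers of surface epithelium had the same pattern, with sums of 5.44 to 6.74 CPM in Ctrl and of 34.1, 4.21 and 38.7 CPM in dcKO, and their part in these lists was not tested. H2-K1, a class I heavy chain gene, was at 20.3, 18.1 and 15.4 CPM in Ctrl and at 63.6, 8.0 and 100 CPM in dcKO. Of 12 MHC class I genes tested, 4 were above every Ctrl embryo in all 3 dcKO embryos (33.3%, beside 15.6% of all genes) and none below, and DESeq2 called 5 up. Of 9 interferon-stimulated genes tested, 3 were above and none below, and DESeq2 called 4 up. Erap1, which trims peptides for class I molecules, was at 7.91, 7.74 and 7.72 CPM in Ctrl and at 57.1, 10.8 and 25.6 CPM in dcKO, and Mr1 at 0.530, 0.545 and 0.541 CPM in Ctrl and at 15.7, 1.28 and 4.18 CPM in dcKO.

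Of the study's other named genes, Klf8 was at 4.85, 3.37 and 5.23 CPM in Ctrl and at 14.8, 4.14 and 12.4 CPM in dcKO, and Clk1, a kinase of splicing factors, at 19.4, 19.9 and 23.4 CPM in Ctrl and at 60.4, 50.7 and 18.4 CPM in dcKO. DESeq2 called both up (adjusted p = 0.0429 and 0.0489). Neither was higher in all 3 dcKO embryos, since Klf8 in dcKO 2 and Clk1 in dcKO 3 were within or under the Ctrl range.

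**Figure D5:**
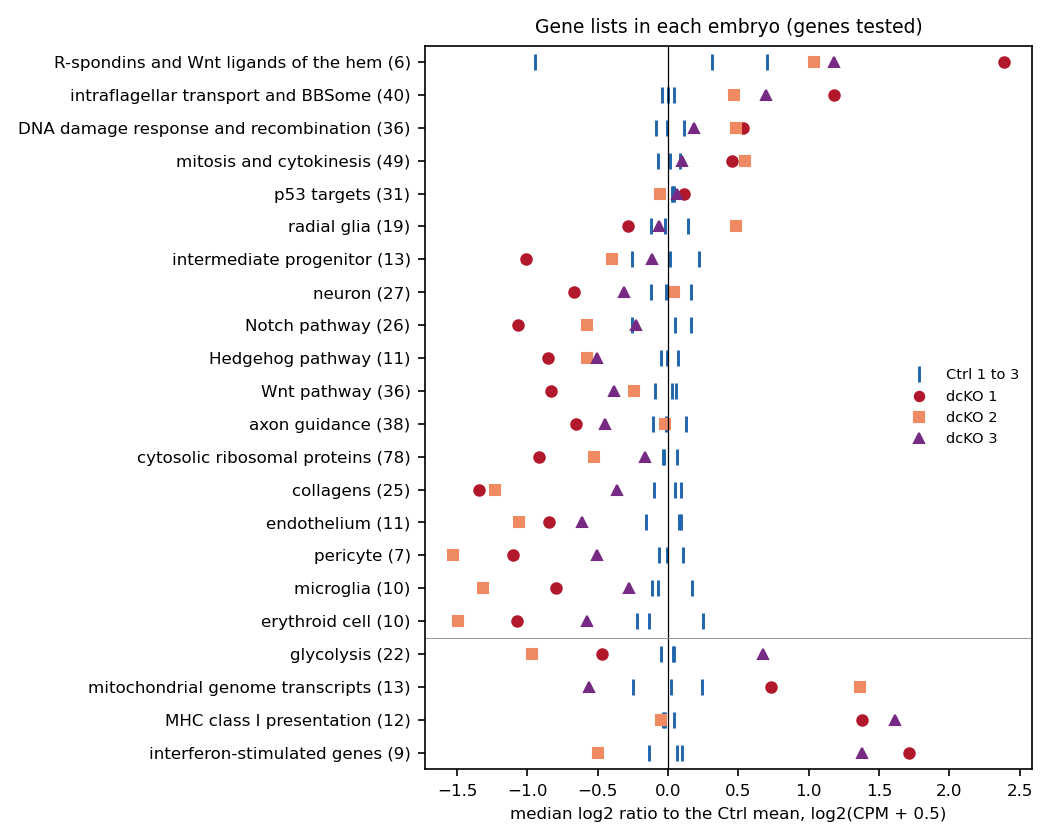
Median log2 ratio to the Ctrl mean over the genes of 22 lists, on the log2(CPM + 0.5) scale, in each Ctrl (blue ticks) and dcKO (coloured symbols) embryo, with the number of genes tested. The hem and IFT lists are above Ctrl and the collagen, endothelial, pericyte and erythroid lists below it in all 3 dcKO embryos, while in the 4 lists under the grey line 1 dcKO embryo stands apart from the others, dcKO 3 in the first 2 and dcKO 2 in the last 2.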

How the data were processed

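Cortical RNA of 9 single mouse embryos at E12.5 was measured, 3 each of Ctrl, cKO and dcKO. The deposited values are raw counts, the reads that the authors assigned to each of 57010 genes, with no normalization. Per the study's methods the stranded poly(A) libraries were trimmed with Cutadapt, aligned to mm39 with STAR and counted with featureCounts, whose strand setting is not given in the sources used here. Totals were 21193798 to 45073349 reads per embryo.

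The 13680 genes above 10 reads in all 9 embryos were tested in edgeR 4.0.16 with TMM factors and the quasi-likelihood test, in 1 model of all 9 embryos. The thresholds were a Benjamini-Hochberg adjusted p of 0.05 and an absolute log2 fold change of 1. DESeq2 1.42.0 was run on the same genes. A gene was counted as above or below when all 3 dcKO embryos lay beyond all 3 Ctrl embryos, and ratios used a pseudocount of 0.5 CPM. The exact two-sided p of 3 against 3 cannot be under 0.1, so none is given for single genes. The steps were tested on simulated data.

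Named are the 12 genes each way, protein-coding, with a mean of at least 1 CPM and not predicted models, whose least different dcKO embryo differed most, the 6 each way with the smallest edgeR p, the study's genes, and members of gene lists with the largest shared difference. Other list members were named after their values were seen. The comparison, the gene lists and the motifs were chosen with earlier results of these data known, and other spellings of the motif were searched. Symbols, GC3 and coordinates come from GENCODE M21 on GRCm38, not the mm39 of the counts, and 52081 identifiers matched. Alternatives were other scaling, filters, models, blocks and corrections and leaving out each embryo. The newer quasi-likelihood method of edgeR, DESeq2 with the replicate block and a block on the number in the sample names were chosen after seeing the data. R 4.3.3, limma 3.58.1, Python 3.11.15, NumPy 2.4.6 and pandas 2.3.3 were used.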

Additional observations from a re-analysis of the deposited data

How the results depend on the processing

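The number of called genes depended on the test and on single embryos. edgeR called 0 genes up and 0 down, and the same under RLE, upper-quartile, filterByExpr, robust and newer quasi-likelihood settings, with only the 6 embryos, and with a sex block. DESeq2 called 638 and 519, the GC correction 165 and 58, limma voom with sample quality weights 1491 and 2177, edgeR without a filter 313 and 379, and an adjusted p under 0.1 gave 672 and 394. Leaving out 1 embryo gave 0 to 1157 up and 0 to 2088 down in edgeR, with 980 and 350 without dcKO 2 and 1157 and 2088 without dcKO 3. DESeq2 on the 6 embryos alone called 381 and 258. Leaving out 1 embryo gave 231 to 1123 up and 141 to 2174 down in DESeq2, with 366 and 141 without Ctrl 1, 359 and 153 without Ctrl 2, 231 and 180 without dcKO 1, 1036 up without dcKO 2, and 1123 and 2174 without dcKO 3. Genes above every Ctrl embryo numbered 2297 to 4415 and those below 1629 to 4204 with 1 embryo left out, and the 2-fold counts 86 to 561 and 45 to 1501. The lower 2-fold count was 34 with CPM of the total, 85 without Ctrl 3 and 155 without dcKO 2, and the higher 360 without dcKO 3. The cause was not tested in these cases, beyond the fewer embryos that a gene had to clear.

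With the replicate block edgeR called 0 and 0, also together with the GC correction, and DESeq2 470 and 554. Same-numbered embryos did not deviate together (r = -0.34, -0.21 and -0.54). Deviations from a mean of 3 embryos depend on one another, so this cannot settle whether the replicate numbers pair the samples. Ctrl 3 and dcKO 3, Ctrl 1 and cKO 2, and Ctrl 2 and cKO 3 each share a number in their sample names, and whether it marks a litter is not given in the sources used here. With that number as a block, chosen after seeing the data, edgeR called 1229 genes up and 404 down. The dcKO term then rests on the single pair of Ctrl 3 and dcKO 3, with the spread taken from the cKO pairs, so these counts describe those 2 embryos. RLE factors were run in edgeR and are DESeq2's own scaling. By GC content of the whole transcript the quartile difference of dcKO 2 was 1.94.

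The log2 fold change of Cnot3 was -2.13 in DESeq2, -3.53 in voom and -2.23 without a filter, and -3.03 to -1.67 with 1 embryo left out. It was -1.27 with the GC correction and -1.73 with that correction and the replicate block. That of Trp53 was -1.81 and -2.37 in these settings, -3.71 in voom and -2.40 without a filter, and -3.72 to -1.84 with 1 embryo left out.

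Of 164 genes named, 147 kept the sign of their log2 fold change in every alternative, as did the medians of 37 of 63 lists. The rest were mostly genes that overlapped between groups. The value turned to 0.13 for Atf5, -0.30 for Ccng1, -0.33 for Cnot1, -0.48 for Cnot6, -0.32 for Eda2r, 0.043 for Ift27, 0.66 for Msx1, 0.052 for Phlda3 and 0.14 for Sesn2 with the GC correction. It was 0.055 for Atf5, -0.33 for Ccng1, -0.34 for Cnot1, -0.53 for Cnot6, -0.36 for Eda2r, 0.020 for Ift27, 0.66 for Msx1 and 0.15 for Sesn2 with that correction and the replicate block. The value was -0.035 for Cnot6, -0.16 for Foxc1, 0.077 for Lum and -0.66 for Wdr34 in voom. It was -0.050 for Cdkn1a, -0.098 for Ift122, -0.061 for Ift172, 0.058 for Lum and -0.41 for Wdr34 with a sex block. The value was -0.027 for Foxc1 and -0.23 for Wdr34 with the replicate block alone. It was -0.051 for Cnot1 and -0.0069 for Foxc1 with filterByExpr. The value was -0.067 for Cnot1 and -0.021 for Foxc1 without a filter. It was -0.016 for Cnot1 in the 6 embryos. With 1 embryo left out, values ranged from -0.065 to 0.56 for Bbs1, -0.037 to 0.65 for Ccng1, -0.15 to 0.55 for Cdkn1a, -0.25 to 0.25 for Cnot1, -0.49 to 0.60 for Cnot6, -0.18 to 0.56 for Eda2r, -0.36 to 0.33 for Foxc1, -0.22 to 0.38 for Ift122, -0.11 to 0.49 for Ift140, -0.22 to 0.40 for Ift172, -0.68 to 0.091 for Ift27, -0.33 to 0.23 for Lum, -0.28 to 0.050 for Msx1 and -1.20 to 0.63 for Wdr34. The causes were not tested.

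With 3 unequal embryos a group the size of a change in dcKO is known only roughly.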

Other observations

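In 240 genes dcKO 2 was at least 2-fold below the Ctrl mean and dcKO 3 at least 2-fold above it, with Haghl, Cul9 and Mt1 leading. In 59 genes the reverse held, with Zfp967, Fastkd5 and Prokr2 leading. These names were chosen after their values were seen. Median GC3 was 69.3% in the first group and 43.4% in the second. Of the 40 IFT and BBSome genes, 32 were above every Ctrl embryo in the remaining dcKO embryos without dcKO 2 and 28 without dcKO 3, beside 25.2% and 32.3% of all genes tested. These counts were added after seeing the data.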
